A study of Mus musculus with 6 samples.

Results

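The nitric oxide synthases and the endothelin system were examined in the left ventricle of obese mice, as the genes Nos1, Nos2, Nos3, Ddah1, Ddah2, Cav1, Edn1, Ednra, Ednrb and Ece1, which were chosen by name. Of these 10 genes, 9 had at least 1 probe set named for them alone in the platform's gene table, out of 18193 genes named in the same way. They carried 20 probe sets, and 8 of the genes were bright enough to be tested. Ednra, the endothelin A receptor, was not analysed here.

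The arrays came from 3 mice given the agent that the labels call Lira and 3 mice given placebo, all male C57BL/6 mice 6 months old. Every mouse, placebo animals included, had been kept on a high fat diet, for 16 weeks according to the design text. That text speaks of 10 mice, and the others were not analysed here. The labels do not spell out Lira, nor give its dose, and nothing was measured in lean mice. Each mouse gave 1 array of left ventricular RNA. The p-values rest on the spread between 3 animals per group, combined with the spread typical of genes of like intensity.

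Nitric oxide is made from arginine by 3 synthases, a neuronal one (Nos1), an inducible one (Nos2) and an endothelial one (Nos3), and it relaxes vascular smooth muscle by raising cyclic GMP. Endothelin-1, the product of Edn1, is a peptide released by endothelial cells that constricts vessels through the A receptor on muscle cells. The endothelin B receptor on endothelium clears the peptide and stimulates nitric oxide release, which ties both systems together. In the heart both are known as regulators of coronary tone and of growth and relaxation of the muscle.

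Signals are linear fluorescence units as the authors deposited them, with a 2% trimmed mean of 150 on every array, and array medians lay between 28.6 and 39.6 in the Lira arrays and between 31.9 and 36.4 in the placebo arrays. Correlations between arrays over the 12735 genes tested lay between 0.973 and 0.981, and no array stood apart. Precision is limited by the 6 arrays, 3 per group, and such data have no reads to count. The labels name left ventricle as the source while their extraction text speaks of blood. Summed signals of 6 heart muscle cell markers were 131500 to 160300 with Lira and 129000 to 136400 with placebo. Of the 6, 5 had higher values with Lira, and in Ryr2 the groups were apart (log2 difference 0.19 ± 0.08, SE; adjusted p = 0.75, limma). Erythroid markers that could be tested, 2 of 4 listed, were Alas2 and Slc4a1. They summed to 25.5 to 42.5 with Lira and 31.0 to 96.8 with placebo. Both were dim, at 2.08 to 63.9 and 11.8 to 42.1 units over the 6 arrays. They differed by -0.52 and -0.60 on the log2 scale, with the groups apart in Slc4a1. The globin genes Hba-a1 and Hbb-b1 were not among the tested genes, and the part of blood in these signals was not tested. Atrial markers, 3 of 5 listed, summed to 2262, 1583 and 1975 with Lira and 2959, 2746 and 3197 with placebo, with the groups apart. Most of that sum was Nppa, the atrial natriuretic peptide gene, at 2142, 1386 and 1862 with Lira and 2845, 2610.3 and 3038 with placebo (log2 difference -0.67 ± 0.13, SE; adjusted p = 0.16, limma). Of the other atrial markers Myl4 differed by 0.27, with the groups apart in the direction opposite to Nppa. Bmp10 differed by -0.61, with overlapping groups and dim values from 4.33 to 77.4 units. Myl7 and Sln were not among the tested genes. The part of atrial tissue in the results that follow was not tested. Fibroblast markers were higher with Lira in 3 of 6. Dcn was higher (log2 difference 0.23 ± 0.08, SE; adjusted p = 0.71, limma) and Col3a1 lower (-0.51 ± 0.13, SE; adjusted p = 0.50, limma). The groups were apart in both, where they were apart in 11.4% of all genes tested. The neutrophil and lymphocyte and the adipocyte list each had 1 higher and 1 lower among 2 tested.

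Ligand and processing enzyme gave the 2 members whose mean signals were higher with Lira on the endothelin side, and their promoters are shown for that reason. The sequences are RefSeq windows of GRCm38.p6 that run from 250 bases before to 50 bases after an annotated start, 5′ to 3′ on the gene's strand, with motif matches in capitals. Edn1 lies at chr13:42301226-42301525 (+ strand), and the Ece1 window at chr4:137861987-137862286 (+ strand) is the first of 4 listed for that gene.
Edn1: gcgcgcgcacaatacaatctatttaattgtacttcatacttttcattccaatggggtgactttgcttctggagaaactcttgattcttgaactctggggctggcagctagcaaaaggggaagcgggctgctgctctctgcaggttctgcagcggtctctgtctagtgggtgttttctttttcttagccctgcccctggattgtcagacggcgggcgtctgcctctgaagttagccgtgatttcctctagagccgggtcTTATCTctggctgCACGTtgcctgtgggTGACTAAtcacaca
Ece1: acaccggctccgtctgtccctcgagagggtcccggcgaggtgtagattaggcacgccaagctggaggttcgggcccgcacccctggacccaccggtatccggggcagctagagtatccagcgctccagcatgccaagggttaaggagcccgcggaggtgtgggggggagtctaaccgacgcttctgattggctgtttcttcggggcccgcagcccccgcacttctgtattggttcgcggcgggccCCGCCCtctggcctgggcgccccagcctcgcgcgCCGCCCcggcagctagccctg

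Both strands were searched for 5 motifs. The first, read by the GATA family of factors, was spelled AGATAA. The AP-1 site was searched as TGANTCA, and a variant of that site as TGACTAA. The core read by hypoxia-inducible factors was ACGTG, and the GC box was GGGCGG. No matches overlapped in the windows shown. Edn1 held the reverse complement of AGATAA at 9 to 14 bases from the start, the reverse complement of ACGTG at 22 to 26 and TGACTAA at 37 to 43, counting the start as 1. Among 32851 windows of the same length, 11.2% held AGATAA, 19.6% held ACGTG and 2.35% held TGACTAA. The Ece1 window held 2 reverse complements of GGGCGG, a motif found in 35.7% of windows. TGANTCA was in neither, and 7.81% of windows held it. Of the 10 genes, 8 had a window in the table, Nos2 and Nos3 being the others. The 5 motifs were picked by hand with no stated rule, so a match beside a low share of windows is no test of rarity. These matches describe letters and were not tested as binding sites.

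Among the 8 members tested, none differed between Lira and placebo after adjustment over all genes. The member with the smallest unadjusted p was Ece1, which encodes the protease that cuts big endothelin-1 into the active peptide, at a fold change of 1.21, Lira over placebo. Next came Ddah1, an enzyme that degrades the synthase inhibitor asymmetric dimethylarginine, at 1.39. The remaining fold changes were 1.40 for Edn1, 1.06 for Ddah2, 0.97 for Nos3, 0.93 for Cav1, 0.83 for Ednrb and 0.59 for Nos1. All are on the log2(signal + 16) scale, on which folds of weakly expressed genes come out too small.

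At an adjusted p under 0.05 (limma, Benjamini-Hochberg), 0 of 8 members passed, where 7 of 12735 genes, or 0.055%, did so. At an unadjusted p under 0.05, 2 of 8 members passed, Ece1 and Ddah1, both with higher values with Lira, where 6.02% of all genes tested did (767). With every probe set tested, 1 of 15 member probe sets passed, and with probe sets averaged per gene 0 of 8 members did. Groups that did not overlap were found in 1 of 8 members, Ece1, which is near the 11.4% of all genes. Of the 8, 4 had higher and 4 lower values with Lira, and their median log2 difference was 0.02, against 0.01 over all genes. The 90% of genes in the middle lay between -0.37 and 0.35, and Nos1, Ddah1 and Edn1 fell outside this range. Their spread within groups was 0.23 at the median member, as a pooled SD of log2 values, and ranged over 0.11 for Ece1 to 0.58 for Nos1, against a median of 0.19 over all genes.

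**Figure D1:**
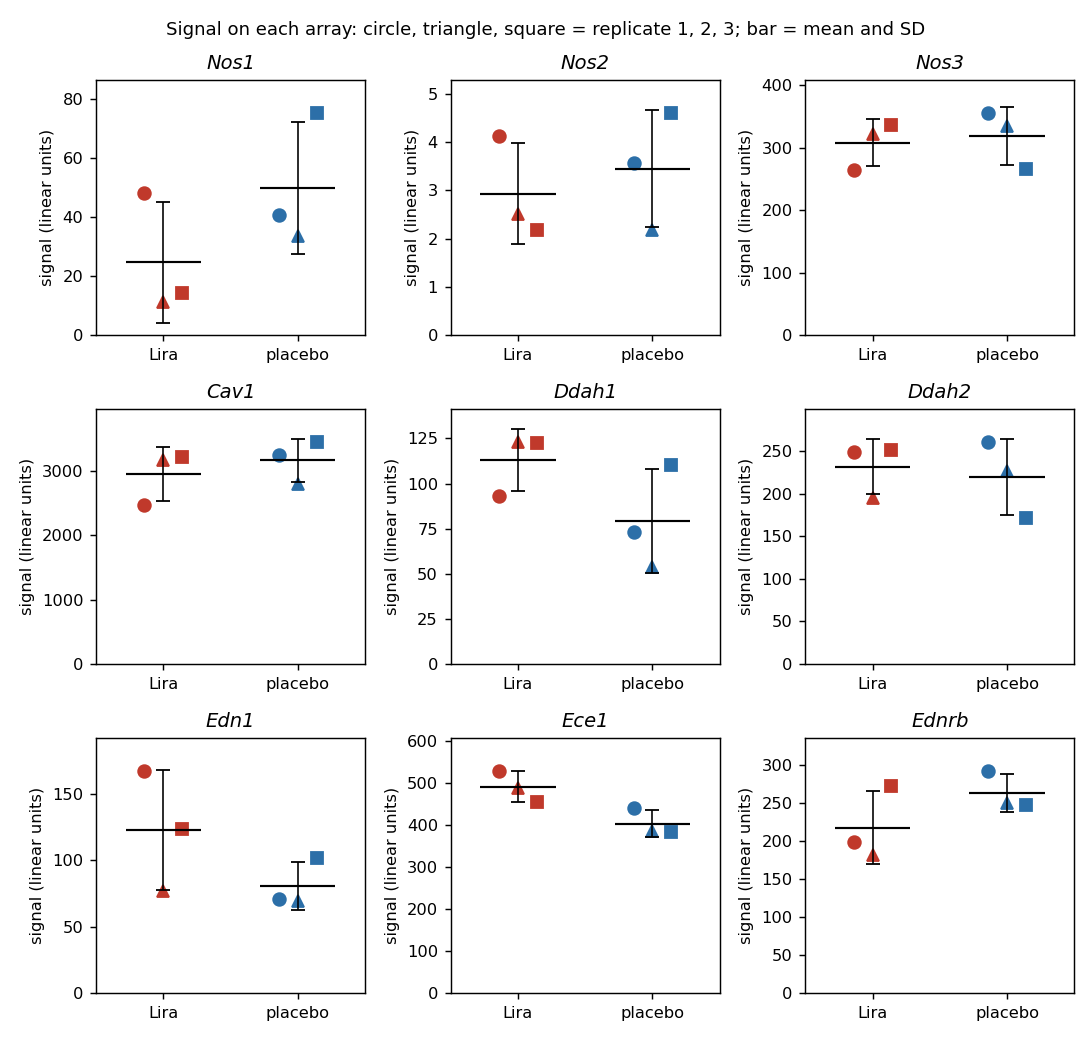
Signal in linear units on each of the 6 arrays for the 9 genes, on the probe set with the highest mean, with Lira left and placebo right in each panel. Circles, triangles and squares are replicates 1, 2 and 3, and bars give the mean and SD of 3 arrays. Ece1 is the one panel in which the groups are apart, with 456 units on the lowest Lira array and 441 on the highest placebo array.

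Nos3, the endothelial synthase and the main source of nitric oxide in vessel walls, gave signals of 265, 322 and 337 on the Lira arrays and 356, 334 and 266 on the placebo arrays. The groups overlapped almost completely, with 1 low array in each. Means were 308 ± 37.9 with Lira and 319 ± 46.6 with placebo (SD, n = 3 each). The log2 difference was -0.04 ± 0.14 (SE; adjusted p = 0.99, limma), and its 95% interval ran from a fold change of 0.79 to 1.19. A change of Nos3 transcript within these bounds could not be resolved with 3 arrays per group.

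Nos1, the neuronal synthase that is also found at the sarcoplasmic reticulum of heart muscle cells, measured 48.3, 11.2 and 14.4 with Lira and 40.6, 33.6 and 75.3 with placebo on its brightest probe set. Lira replicates 2 and 3 were lower than every placebo array, and Lira replicate 1 lay between the placebo arrays. On the log2 scale Nos1 differed by -0.76 ± 0.38 (SE; adjusted p = 0.83, limma), with a wide interval of 0.34 to 1.04 in fold change. Its signals varied 6.71-fold between the highest and the lowest array, the widest range of the 8 members tested, at a level close to the filter of 23.7 units. The other 3 Nos1 probe sets had mean signals under that filter, and their log2 differences were -0.32, 0.21 and 0.18. The 4 probe sets of Nos1 gave no common direction, and with their mean Nos1 differed by -0.17. With single arrays left out the difference on the brightest one was -1.14 without Lira replicate 1 and -0.49 without placebo replicate 3. S100b, the only one of 5 neural and glial markers that could be tested, measured 37.2, 7.82 and 10.6 with Lira and 27.1, 48.0 and 36.5 with placebo, a log2 difference of -0.70 ± 0.38 (SE; adjusted p = 0.85, limma). Like Nos1, S100b was dim and was low on Lira replicates 2 and 3. Within placebo the orders differed, since S100b was highest on replicate 2, where Nos1 was lowest. Nos1 was highest on placebo replicate 3, at 75.3, where S100b gave 36.5. The part of neural content in the Nos1 values was not tested.

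Nos2, the inducible synthase made by activated macrophages, was dim on every array. Its only probe set gave 4.12, 2.502 and 2.17 with Lira and 3.56, 2.18 and 4.60 with placebo. These values lie below the filter on low signals, so Nos2 was not tested. No detection calls were used, so no statement on its presence is made. Summed signals of 6 macrophage markers were 3857 to 4726 with Lira and 3484 to 4126 with placebo, in overlapping ranges. All 6 had higher means on the log2 scale with Lira, with a median difference of 0.19, where 51.9% of all genes tested were higher. In 2 of the 6, Adgre1 and C1qa, the groups were apart, where 11.4% of all genes tested were. None of the 6 had an unadjusted p under 0.05 (limma; smallest adjusted p = 0.84).

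Cav1 encodes caveolin-1, the coat protein of caveolae that binds and restrains the endothelial synthase. It measured 2472, 3163 and 3215 with Lira and 3245, 2798 and 3449 with placebo. Lira replicate 1 had the lowest signal of the 6 arrays for Cav1, and for Nos3 it was also the lowest. Without that array the log2 differences were 0.02 for Cav1 and 0.06 for Nos3, against -0.11 ± 0.11 (SE; adjusted p = 0.94, limma) and -0.04 with all arrays. The 95% interval for Cav1 was a fold change of 0.78 to 1.10.

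The dimethylarginine dimethylaminohydrolases remove the methylated arginines that block nitric oxide synthases. Ddah1 gave 93.2, 123 and 123 with Lira and 73.4, 53.5 and 110.5 with placebo on its brightest probe set. Lira replicates 2 and 3 were higher than every placebo array, while placebo replicate 3 exceeded Lira replicate 1, so the groups overlapped. Means were 113 ± 17.1 with Lira and 79.1 ± 28.9 with placebo (SD, n = 3 each). The log2 difference was 0.47 ± 0.22 (SE; adjusted p = 0.82, limma), and the interval reached from 1.001 to 1.93 in fold change. Leaving out placebo replicate 2 gave 0.27 and leaving out placebo replicate 3 gave 0.70, and the unadjusted p was under 0.05 in 7 of 18 alternatives.

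That difference was not shared by the other Ddah1 probe sets. A second one measured 63.0, 69.6 and 49.5 with Lira and 61.5, 61.6 and 86.3 with placebo, a log2 difference of -0.16. Another measured 64.5, 48.8 and 65.6 with Lira and 56.1, 64.2 and 43.8 with placebo, a difference of 0.10. In both the groups overlapped. The remaining 2 were under the filter, at -0.35 and 0.30, so of the 5 probe sets 3 were higher and 2 lower with Lira. With the mean of the 5 in place of the brightest, Ddah1 differed by 0.07 (adjusted p = 0.99, limma).

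Ddah2, the relative of Ddah1 that is found in endothelium, gave 249, 195 and 251 with Lira and 261, 227 and 172 with placebo. High and low arrays occurred in both groups. Ddah2 differed by 0.08 ± 0.16 on the log2 scale (SE; adjusted p = 0.97, limma), with an interval of 0.83 to 1.34 in fold change.

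**Figure D2:**
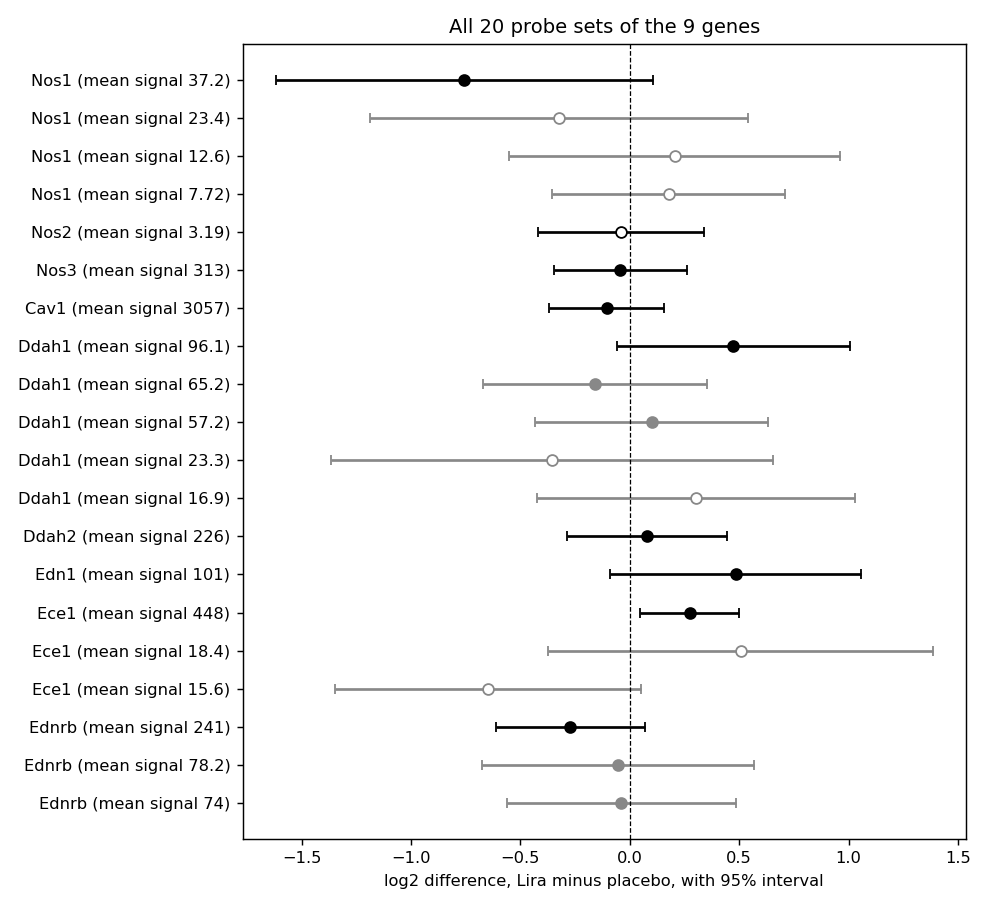
Log2 difference, Lira minus placebo, with its 95% interval for all 20 probe sets, from a limma fit of every probe set without a filter. Black marks the probe set that represents a gene, grey the others, and open circles those under the filter of 23.7 units. The interval of 1 probe set, the brightest of Ece1, lies apart from 0, and the 11 grey ones all include it.

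Edn1, the gene of preproendothelin-1, measured 167, 76.6 and 124 with Lira and 70.6, 69.2 and 102 with placebo. Lira replicates 1 and 3 were higher than any placebo array, and Lira replicate 2 lay inside the placebo range. Means were 123 ± 45.3 with Lira and 80.4 ± 18.3 with placebo (SD, n = 3 each), and the spread with Lira was the larger. The log2 difference was 0.48 ± 0.24 (SE; adjusted p = 0.83, limma), with an interval of 0.98 to 1.99 in fold change. It was 0.255 to 0.747 with single arrays left out, the lowest without Lira replicate 1 and the highest without Lira replicate 2. Edn1 has 1 probe set, so no second one could be compared.

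Ece1, the endothelin-converting enzyme, measured 529.8, 489 and 456 with Lira and 441, 386 and 384 with placebo on its brightest probe set. All 3 Lira arrays were above all 3 placebo arrays, with a narrow gap between them. Means were 492 ± 37.0 with Lira and 404 ± 32.1 with placebo (SD, n = 3 each). The log2 difference was 0.27 ± 0.11 (SE; adjusted p = 0.76, limma), and the interval was 1.02 to 1.43 in fold change. It was above 0 under each of the 18 alternatives, with an unadjusted p under 0.05 in 11 of them.

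The other probe sets of Ece1 were dim and did not share a direction. One gave 24.7, 5.42 and 45.9 with Lira and 5.19, 8.24 and 20.7 with placebo. The other gave 3.91, 19.7 and 3.52 with Lira and 30.1, 22.3 and 14.2 with placebo. Groups overlapped in both, and the log2 differences were 0.51 and -0.65. With the mean of its 3 probe sets Ece1 differed by 0.04.

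Ednrb, the endothelin B receptor, measured 199, 182 and 272 with Lira and 293, 250.2 and 247 with placebo on its brightest probe set. Lira replicates 1 and 2 were below every placebo array, and Lira replicate 3 was above 2 of the 3. Means were 218 ± 47.8 with Lira and 263 ± 25.4 with placebo (SD, n = 3 each). On the log2 scale Ednrb differed by -0.27 ± 0.15 (SE; adjusted p = 0.86, limma), with an interval of 0.66 to 1.04 in fold change. It was -0.16 without Lira replicate 2 and -0.43 without Lira replicate 3. Its other 2 probe sets, both above the filter, differed by -0.05 and -0.04. All 3 had the same sign, and the size of the difference on the brightest one was not seen on the others.

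**Figure D3:**
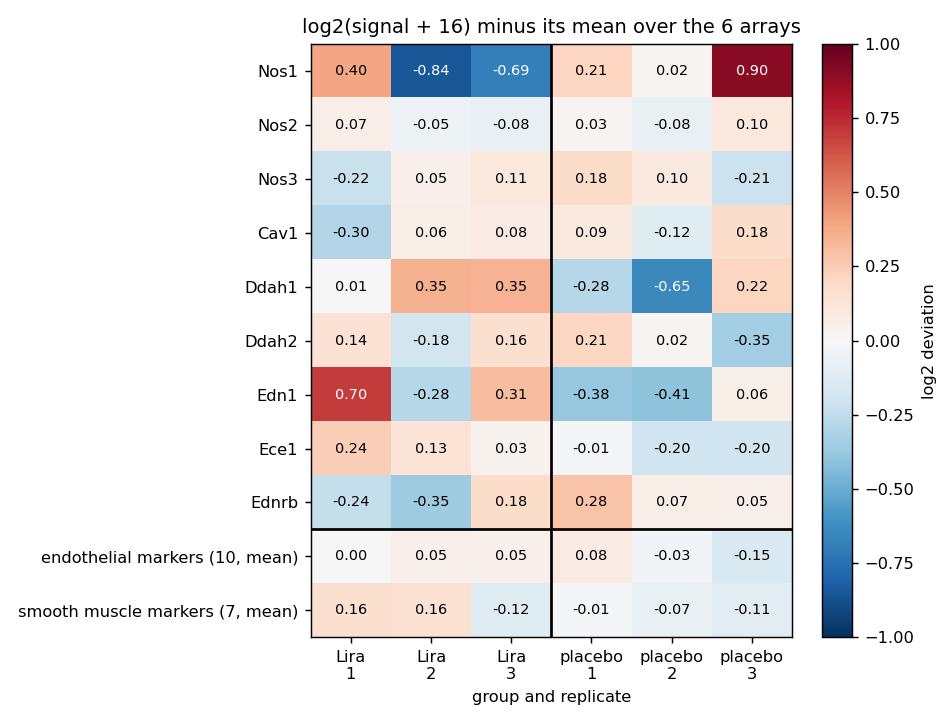
Deviation of log2(signal + 16) from its mean over the 6 arrays, with genes and marker lists in rows, Lira arrays left and placebo arrays right of the line. Each cell prints its value. Lira replicate 1 holds the highest Edn1 value (0.70) and the lowest Cav1 value (-0.30), while Ece1 is positive on the 3 Lira arrays and negative on the 3 placebo arrays.

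In tissue RNA, fewer cells of a type and less RNA per cell cannot be told apart, so markers of vessel cells were set beside these genes. The endothelial list was Pecam1, Cdh5, Kdr, Tek, Tie1, Emcn, Egfl7, Vwf, Eng and Esam, and all 10 were tested. Their summed signal was 5457 to 5687 with Lira and 4911 to 5754 with placebo, and the Lira range lay inside the placebo range. Of the 10, 7 had higher and 3 lower values with Lira, the median log2 difference was 0.06, and 0 passed at an unadjusted p under 0.05 (limma; smallest adjusted p = 0.87). Smooth muscle and pericyte markers tested were Acta2, Myh11, Tagln, Smtn, Rgs5, Pdgfrb and Cspg4, 7 of 8 listed, with Cnn1 under the filter. Their summed signal was 11100 to 12650 with Lira and 9767 to 10980 with placebo. Of the 7, 4 had higher and 3 lower values with Lira, the lower ones being Tagln, Smtn and Pdgfrb, and the median log2 difference was 0.04. Acta2 alone of the 7 had an unadjusted p under 0.05, at 3377, 1579 and 1518 with Lira and 1122, 1074 and 1390.5 with placebo, with the groups apart (log2 difference 0.75 ± 0.23, SE; adjusted p = 0.59, limma). Without Acta2 the sums were 9275, 9748 and 9583 with Lira and 9855, 8693 and 8815 with placebo, and the groups overlapped. Lira replicate 1, the array with the highest Edn1 signal, had the highest Acta2 signal but the lowest Myh11 signal of the 6 arrays, 120.9. The part of smooth muscle content in the Edn1 and Ece1 values was not tested.

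Proteins that feed or hold the synthases were surveyed as a list of 29 genes, of which 20 were tested. Values were higher with Lira in 11 and lower in 9, with a median log2 difference of 0.01, the same as over all genes. None passed at an adjusted p under 0.05 (limma), and 1 passed unadjusted. It was Hsp90aa1, a chaperone that binds the endothelial synthase, at 2144, 2210.4 and 2523 with Lira and 2842, 2667 and 3635 with placebo, with the groups apart (log2 difference -0.40 ± 0.12, SE; adjusted p = 0.55, limma). It was -0.17 with probe sets averaged per gene. Gchfr, the feedback regulator of GTP cyclohydrolase, differed by -0.38 and Dynll1, a dynein light chain that binds the neuronal synthase, by -0.21. Over the alternatives Dynll1 ranged from -0.319 with probe sets averaged per gene to -0.0836 without placebo replicate 3. Gch1, the cyclohydrolase that starts synthesis of the cofactor tetrahydrobiopterin, measured 178, 125 and 149 with Lira and 179, 141 and 187 with placebo. Cav3, the caveolin of muscle cells, differed by -0.06. Arg2, an arginase that competes for arginine, was under the filter at 10.3, 12.6 and 3.09 with Lira and 0.942, 10.6 and 22.2 with placebo.

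The receptor of nitric oxide is soluble guanylate cyclase, a dimer whose main subunits are encoded by Gucy1a1 and Gucy1b1. Gucy1a1 measured 195, 181 and 156 with Lira and 134, 164 and 129.7 with placebo. Gucy1b1 measured 199.7, 172 and 166 with Lira and 162, 154 and 130.2 with placebo, and its groups did not overlap. Their log2 differences were 0.29 ± 0.15 and 0.25 ± 0.14 (SE; adjusted p = 0.84 and 0.87, limma). Prkg1, the cyclic GMP-dependent kinase, differed by -0.11 ± 0.14 and the phosphodiesterase Pde5a by -0.06 ± 0.26. Of 17 genes on this list 15 were tested, 7 with higher and 8 with lower values with Lira, and the median was -0.06. None passed adjusted, and 1 passed unadjusted, Adh5, which reduces S-nitrosoglutathione, at 1824, 1787 and 1963 with Lira and 2098, 1975 and 2406 with placebo (adjusted p = 0.82, limma). Its log2 difference was -0.21, or -0.13 without placebo replicate 3 and -0.09 with probe sets averaged per gene. In neither of these 2 alternatives was its unadjusted p under 0.05 (limma).

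On the endothelin side, a list of 22 further processing and signalling genes had 20 tested, 12 with higher and 8 with lower values with Lira and a median of 0.04. Again none passed adjusted and 1 passed unadjusted. That gene was Ece2, a second converting enzyme, at 88.8, 105 and 97.3 with Lira and 121, 123 and 141 with placebo (log2 difference -0.36 ± 0.15, SE; adjusted p = 0.80, limma). With probe sets averaged per gene it was -0.31, and its unadjusted p was then not under 0.05 (limma). Every Lira array of Ece2 was below every placebo array, while Ece1 showed the opposite order. Rgs2, which curbs signalling through the Gq proteins that endothelin receptors use, differed by -0.34. Over the alternatives Rgs2 ranged from -0.472 without Lira replicate 1 to -0.135 without placebo replicate 1. Nfatc4, a transcription factor downstream of calcium, differed by 0.41, or by -0.15 with probe sets averaged per gene. The groups overlapped in both. The 3 unadjusted calls among the 55 tested genes of these lists are to be read against the 6.02% of all genes.

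**Figure D4:**
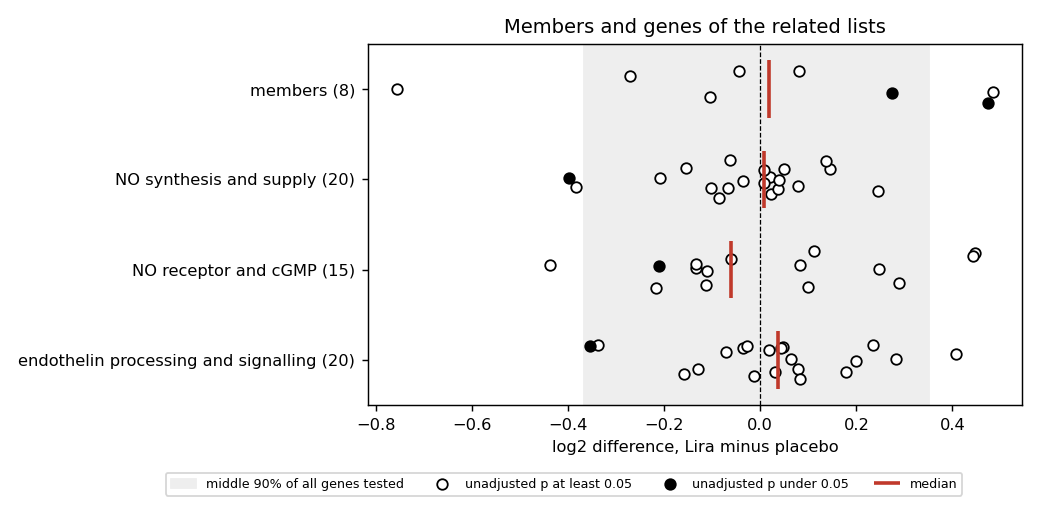
Log2 difference, Lira minus placebo, of the 8 members and of the 20, 15 and 20 tested genes of the 3 lists, 1 point per gene with vertical scatter for legibility. Filled points have an unadjusted p under 0.05, the red line is the list's median and the grey band spans the 90% of all genes tested that lie in the middle. The 4 medians lie between -0.06 and 0.04.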

How the data were processed

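Left ventricular RNA from 6 mice was measured on Affymetrix arrays. The authors deposited 1 linear intensity for each probe set on each array. The submitters' processing notes name Affymetrix Expression Console, and its version, its algorithm and a genome build are not stated in the sources used here. All arrays have the same trimmed mean, so only changes relative to other genes show. Controls (64 probe sets) were dropped. Of the rest, 34945 named 1 gene, 932 named several and were not used, and 9160 were not in the name table. Symbols were updated by gene ID to RefSeq symbols of GRCm38.p6 (34741 matched).

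Each gene was represented by its probe set with the highest mean, and intensities were transformed to log2(signal + 16). Dropping the dimmest 30% of genes by mean signal kept 12735, at 23.7 units or more. Groups follow the agent in the labels. The comparison, Lira minus placebo, was fitted with limma 3.58.1 in R 4.3.3, by a two-sided moderated test with an intensity trend of the variance (eBayes) and Benjamini-Hochberg adjustment over all genes. The fit was tested on simulated data with normal noise at the spread typical of each intensity. Spreads that differ between genes of like intensity were not simulated. Intervals are 95%.

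Members and lists were chosen with earlier results of these data known. Named are all members, each list's genes past an adjusted p of 0.05 or else its 3 with the smallest p, and Gucy1a1, Gucy1b1, Prkg1, Pde5a, Gch1, Arg2 and Cav3. Markers are given by list, and those named with values were chosen after these were seen. The 18 alternatives cover normalisation, pseudocount, filter, probe sets, prior, weights, a replicate block and each array left out. Replicate numbers are shared by both groups, but same-numbered arrays deviated from their group means with correlations of -0.03, 0.083 and -0.09, so they were not treated as pairs.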

Additional observations from a re-analysis of the deposited data

How the results depend on the processing

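No member passed an adjusted p of 0.05 in limma under any of the 18 alternatives, and 0 to 3 members had an unadjusted p under 0.05. Over all genes 7 passed, against 2 with every probe set tested, 1 with no filter, and 0 with probe sets averaged per gene and with no variance trend, where 698 and 683 genes had an unadjusted p under 0.05. With single arrays left out the count was 1 to 9. Leaving out Lira replicate 1 gave 4 genes, leaving out Lira replicate 2 gave 3, leaving out Lira replicate 3 gave 1, and leaving out placebo replicate 2 gave 2. With the replicate block 7 genes and 0 members passed. The numbers share only a label, and not every array was closest to its own number.

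Of 144 member values under alternatives, 4 had the other sign, all with an array left out and all for members near 0. The ranges over arrays left out were -0.162 to 0.0557 for Nos3, -0.0747 to 0.204 for Ddah2 and -0.191 to 0.0166 for Cav1. Of 234 values of the 14 named list genes, 6 had the other sign. They include -0.153 for Nfatc4 and 0.085 for Pde5a with probe sets averaged per gene, and 0.0906 for Pde5a with array weights. With arrays left out Pde5a ranged over -0.282 to 0.127 and Prkg1 over -0.211 to 0.00841. The cause was not tested. The median of the cyclic GMP list was 0.0819 with no filter and 0.0861 with array weights, against -0.06. Dim probe sets limit Nos1, Nos2 and Arg2, whose signals could not be set against a detection call.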
